A study of Mus musculus with 8 samples.

Results

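CpG-dense DNA was followed on single molecules in embryonic stem cells of the mouse in which TET1, TET2 and TET3 are missing. The data were sequencing reads that carried 6 to 10 CpG calls and lay on chromosomes 1 to 19. Members were found by counting the calls of each read name, without regard to the calls themselves. They numbered 29419 of the 832996 reads with at least 1 CpG call. In all groups the cells carried, on a PiggyBac transposon, a doxycycline-inducible catalytic domain of TET3 (mouse) linked to mCherry, and the medium held 50 µg/ml ascorbate. There were 3 libraries of untreated cells (0 h, A, B and C), 2 of cells given 1 µM doxycycline for 6 h (A and B) and 3 of cells given it for 12 h (A, B and C). Reads came from bulk DNA of 1 stable line, so a cell that had not responded and an unmarked stretch in a responding cell cannot be told apart. The transgene is a catalytic domain and not the full protein, and DNA calls hold no marker by which the cell type could be checked. The labels do not say whether the letters were separate cultures, so p-values measure only how these samples vary, and that variation may be technical.

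TET enzymes oxidise 5-methylcytosine to 5-hydroxymethylcytosine (5hmC), which they can only make where a methyl group was present. Most CpGs of the mouse genome are methylated, whereas CpG islands, short CpG-rich stretches that cover the start sites of many genes, are usually free of methylation. APOBEC-coupled epigenetic sequencing (ACE-seq) protects 5hmC by glucosylation and deaminates cytosine and 5-methylcytosine with an enzyme. An undeaminated call, written Z, therefore stands for 5hmC plus the background of the assay, and a deaminated call, written z, for all else. The level is the percentage of calls that were undeaminated.

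A read with 6 to 10 CpGs shows several neighbouring CpGs of 1 strand of 1 DNA molecule together. Of the 29419 reads, 13020 (44.3%) had 6 CpGs, 7185 had 7, 4265 had 8, 2889 had 9 and 2060 had 10. The CpGs of a read spanned a median of 104 bases and at most 141. Such reads numbered 2615, 1378 and 1589 in the untreated libraries, 1214 and 4794 in those of 6 h, and 7230, 7653 and 2946 in those of 12 h. They made up 3.42 to 3.81% of the autosomal reads and 11.1 to 12.0% of the autosomal calls of a library, and whole libraries held 75023 to 485941 calls. Within 1 kb of the nearest end of a protein-coding gene lay 6323 of the reads (21.5%), against 3.25% of the reads with 1 CpG, 8.35% of those with 4 or 5 and 61.6% of those with 11 or more. Among the members this share ran from 14.0% of the reads with 6 CpGs to 42.6% of the reads with 10.

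5 promoters show what such reads looked like at 12 h. They were picked after their calls had been seen, to span promoters of many and of few CpGs, and none was covered by such a read at 0 or 6 h. Each sequence is the promoter window of RefSeq (GRCm38.p6), 250 bases before to 50 after the start site, on the strand of the gene, with the called CpGs in capitals. App, which encodes the amyloid precursor protein, has its window at chr16:85173658-85173957 on the minus strand, with 30 CpGs. Its 2 reads, both of 12 h library A, called 11 of these CpGs and had 0 undeaminated of 18 calls. Nek2, a kinase of the centrosome cycle, has its window at chr1:191821223-191821522 on the plus strand, with 24 CpGs, and 2 reads of library B had 0 undeaminated of 18 calls. Prss23, a serine protease, has its window at chr7:89517872-89518171 on the minus strand, with 12 CpGs. Its read of library A had no undeaminated call and its read of library B had 2, together 2 of 17. Spag17, a part of the axoneme of motile cilia, has its window at chr3:99885167-99885466 on the plus strand, also with 12 CpGs, and 1 read of library A had 4 of 6 undeaminated, in the order zzZZZZ along the gene's strand. Siah3, a relative of the SIAH ubiquitin ligases, has its window at chr14:75455732-75456031 on the plus strand, with 9 CpGs, and 1 read of library C had 7 of 7 undeaminated.
App: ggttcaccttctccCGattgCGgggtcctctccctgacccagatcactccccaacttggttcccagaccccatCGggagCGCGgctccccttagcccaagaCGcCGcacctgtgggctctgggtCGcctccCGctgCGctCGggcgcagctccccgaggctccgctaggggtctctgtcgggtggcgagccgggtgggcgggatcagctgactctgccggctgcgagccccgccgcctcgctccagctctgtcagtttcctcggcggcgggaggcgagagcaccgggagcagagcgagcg
Nek2: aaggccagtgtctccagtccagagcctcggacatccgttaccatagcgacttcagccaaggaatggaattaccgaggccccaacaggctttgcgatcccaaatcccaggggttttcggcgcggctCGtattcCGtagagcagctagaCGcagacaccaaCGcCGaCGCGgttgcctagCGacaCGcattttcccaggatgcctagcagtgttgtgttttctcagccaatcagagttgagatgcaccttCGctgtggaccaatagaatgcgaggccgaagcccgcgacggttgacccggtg
Prss23: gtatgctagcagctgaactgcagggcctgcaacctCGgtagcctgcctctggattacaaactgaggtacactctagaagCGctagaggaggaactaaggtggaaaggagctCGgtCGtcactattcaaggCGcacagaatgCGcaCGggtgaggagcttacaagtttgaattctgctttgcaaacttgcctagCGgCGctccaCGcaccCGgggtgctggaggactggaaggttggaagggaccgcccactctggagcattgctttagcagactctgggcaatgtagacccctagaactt
Spag17: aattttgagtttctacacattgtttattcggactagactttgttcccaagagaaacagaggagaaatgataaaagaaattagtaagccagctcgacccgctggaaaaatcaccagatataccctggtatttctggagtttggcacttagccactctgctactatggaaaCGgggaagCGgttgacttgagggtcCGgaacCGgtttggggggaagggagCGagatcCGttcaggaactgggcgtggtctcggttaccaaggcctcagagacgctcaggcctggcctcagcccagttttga
Siah3: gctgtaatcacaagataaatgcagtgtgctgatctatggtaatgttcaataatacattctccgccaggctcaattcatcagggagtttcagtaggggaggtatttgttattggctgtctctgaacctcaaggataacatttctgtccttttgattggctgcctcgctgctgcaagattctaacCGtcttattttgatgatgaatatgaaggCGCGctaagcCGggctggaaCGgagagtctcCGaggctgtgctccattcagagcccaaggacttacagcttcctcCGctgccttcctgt

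The level on these reads rose with time in doxycycline. It was 0.972, 1.26 and 1.38% in untreated libraries A, B and C, 6.62 and 5.82% in the 6 h libraries A and B, and 20.0, 21.2 and 24.6% in the 12 h libraries A, B and C. No library of one time overlapped one of another. The 95% Wilson interval of the shallowest library, 6 h A, ran from 6.12 to 7.16% and covers counting error only. The 12 h mean of 21.9 ± 2.35% (SD, n = 3) lay 20.7 points above the untreated mean of 1.203 ± 0.210% (n = 3), and the 6 h mean of 6.22 ± 0.568% (n = 2) lay 5.02 points above it. By exact permutation (two-sided) both differences had p = 0.1, the smallest p that these numbers of libraries allow, and 0.109 after adjustment over 12 tests. In each of the 3 sequencing runs taken alone, the 12 h libraries lay between 19.7 and 25.9%.

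Fewer reads stayed without any mark. Reads with no undeaminated call made up 95.6 ± 0.230% of the members at 0 h, 74.1 ± 2.34% at 6 h and 40.5 ± 3.11% at 12 h. Mixed reads, with both kinds of call, made up 4.21 ± 0.209%, 25.7 ± 2.32% and 58.5 ± 2.76% at 0, 6 and 12 h. Reads undeaminated throughout stayed rare, at 7 among 5582 reads (0 h), 8 among 6008 (6 h) and 159 among 17829 (12 h). The share of unmarked reads at 12 h lay 55.1 points below that at 0 h, and the shares of mixed and of wholly undeaminated reads lay 54.3 and 0.846 points above (exact permutation p = 0.1 each, adjusted 0.109, with no overlap between the groups). The marked reads carried more marks at 12 h, but not at 6 h, than at 0 h. On reads with at least 1 undeaminated call, the level was 26.95 ± 4.46% at 0 h, 24.1 ± 0.0816% at 6 h and 37.4 ± 2.00% at 12 h. Such reads hold an undeaminated call by their choice, so this level cannot come near 0 at any time.

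At 12 h the Z share per read was graded, with no second peak at full marking. Farther than 1 kb from gene ends at 12 h, 32.9 ± 3.70% of the reads had no undeaminated call. A further 20.3 ± 1.17% had a share above 0 and up to 20%, 19.2 ± 1.06% a share over 20 and up to 40%, 15.5 ± 1.91% over 40 and up to 60%, 8.002 ± 1.08% over 60 and up to 80%, 3.03 ± 0.683% over 80 and under 100% and 1.12 ± 0.388% of 100%. Within 1 kb the same classes held 69.1 ± 1.27, 14.0 ± 1.03, 7.92 ± 0.283, 5.41 ± 1.06, 2.40 ± 0.412, 0.700 ± 0.225 and 0.475 ± 0.301% of the reads. Both distributions fell from class to class, and that near gene ends held more of its reads in the class without a mark. At 0 h, 95.3 ± 0.0858% of the reads within 1 kb and 95.8 ± 0.324% of those farther away had no mark. At the earlier times fully marked reads were too few to judge a second peak. At 6 h within 1 kb the class of 100% held 0.235 ± 0.196% and that over 80 and under 100% held 0.0481 ± 0.0681%. At 0 h farther away these classes held 0.178 ± 0.0746 and 0.130 ± 0.102%.

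**Figure D1:**
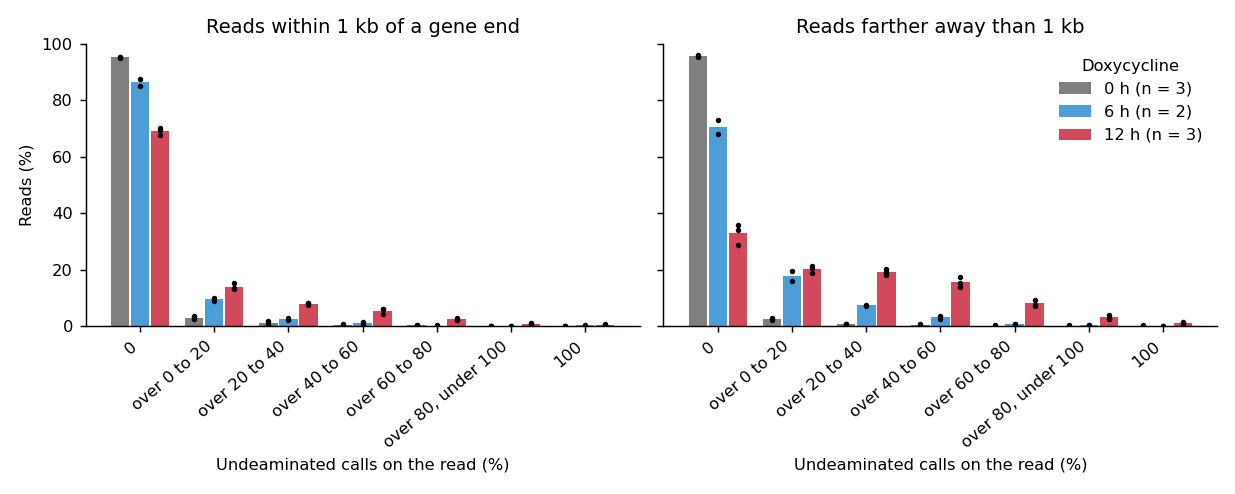
Share of undeaminated calls per read (x axis, percent) against the percentage of reads (y axis) for reads within 1 kb of a protein-coding gene end (left) and farther away (right). Bars are means of the 3, 2 and 3 libraries of 0, 6 and 12 h and points are libraries. At 12 h the bars fall from class to class on both sides, with 69.1% of the reads within 1 kb and 32.9% of those farther away in the class of 0, and no rise at 100.

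Reads with exactly 8 CpGs showed the same form without any classes. Farther than 1 kb from gene ends at 12 h, the reads with 0 to 8 undeaminated CpGs numbered 645, 358, 269, 230, 163, 109, 89, 40 and 19. Within 1 kb they numbered 494, 92, 38, 27, 16, 10, 8, 3 and 1. Each step down the series held fewer reads than the one before it, on both sides.

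**Figure D2:**
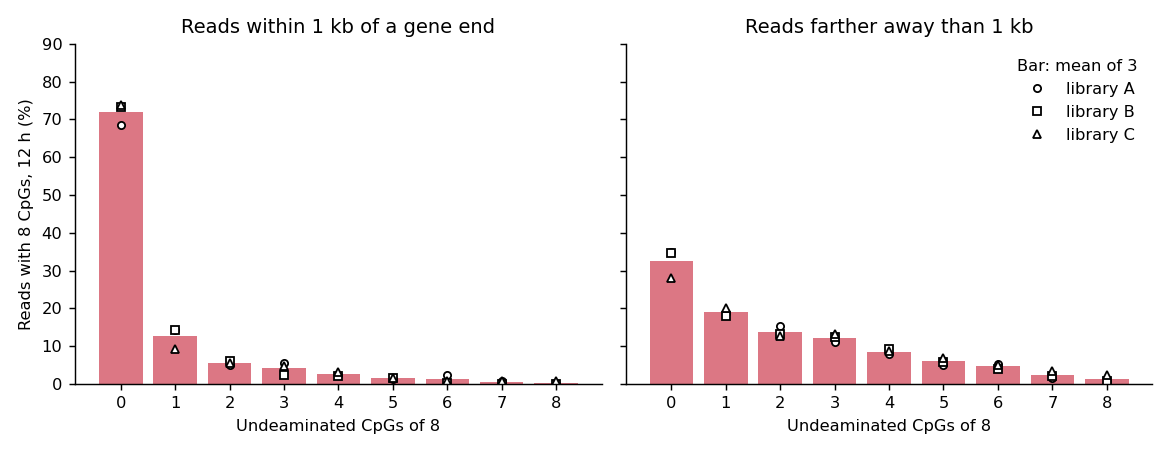
Number of undeaminated CpGs on reads with 8 CpGs at 12 h (x axis) against the percentage of those reads (y axis), within 1 kb of a gene end (left) and farther away (right). Bars are means of 3 libraries and symbols are libraries A, B and C. Unmarked reads made up 72.0% of the reads within 1 kb and 32.5% of those farther away, and wholly undeaminated ones 0.256 and 1.26%.

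Fitted distributions describe the same reads. If all CpGs farther away at 12 h had been marked independently at the level of their library, 10.1 to 16.3% of the reads would have had no mark, where 28.7 to 35.7% had none. With 2 levels allowed, the fits placed 39.9 to 48.6% of the reads at a high level of 47.2 to 50.2% and the rest at a low level of 7.61 to 8.88%, so that neither level there was near 0 or 100%. Within 1 kb they placed 17.6 to 20.5% of the reads at a high level of 38.7 to 43.6% and the rest at a low level of 2.00 to 2.29%, where the untreated level was 1.14 ± 0.267%. A graded (beta-binomial) distribution, with 1 parameter fewer than the fit of 2 levels, had the higher log-likelihood in each 12 h library, by 63.9, 62.7 and 42.9 in A, B and C. It left 27.7 to 35.2% of the reads unmarked. Reads with at least 80% of their calls undeaminated made up 3.21 to 5.44% in the data, 3.97 to 6.31% in the graded fit and 2.35 to 3.83% in the fit of 2 levels. Within 1 kb the graded fit was ahead by 8.46 to 10.99. Farther away at 6 h it was ahead by 1.08 in library A and 28.2 in library B.

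Marks of 1 read went together. The correlation of calls of the same read was 0.339 ± 0.0849 at 0 h, 0.187 ± 0.00327 at 6 h and 0.258 ± 0.0113 at 12 h, and 0.235 ± 0.00738 at 12 h within bins of distance to gene ends. The 12 h and 0 h libraries overlapped (difference -0.0803, exact permutation p = 0.4). The difference was -0.129 without untreated library A, -0.0514 without C, -0.133 on reads with 6 or 7 CpGs and -0.0131 on reads with 8 to 10. Farther than 1 kb from gene ends at 12 h, a CpG was undeaminated in 45.7 ± 2.39% of cases after an undeaminated neighbour and in 18.9 ± 2.01% after a deaminated one. Within 1 kb these values were 39.5 ± 4.12% and 5.96 ± 0.330%. After an undeaminated neighbour the reads near gene ends thus came close to the others, and after a deaminated one they did not.

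Farther from gene ends the likeness of neighbours fell off with spacing. Farther than 1 kb from gene ends at 12 h, the next CpG was undeaminated after an undeaminated one in 51.1 ± 2.65% of cases at 2 to 5 bases, 47.6 ± 3.91% at 6 to 10, 43.5 ± 2.39% at 11 to 20, 42.7 ± 1.78% at 21 to 40 and 38.8 ± 1.34% at 41 bases or more. After a deaminated CpG it stayed between 18.1 and 19.8%. Mixed reads there switched from one kind of call to the other 2.52 ± 0.0391 times per read. With calls shuffled within each read, 2.64 ± 0.0414 switches would be found, so the order of calls differed little from a shuffled one.

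**Figure D3:**
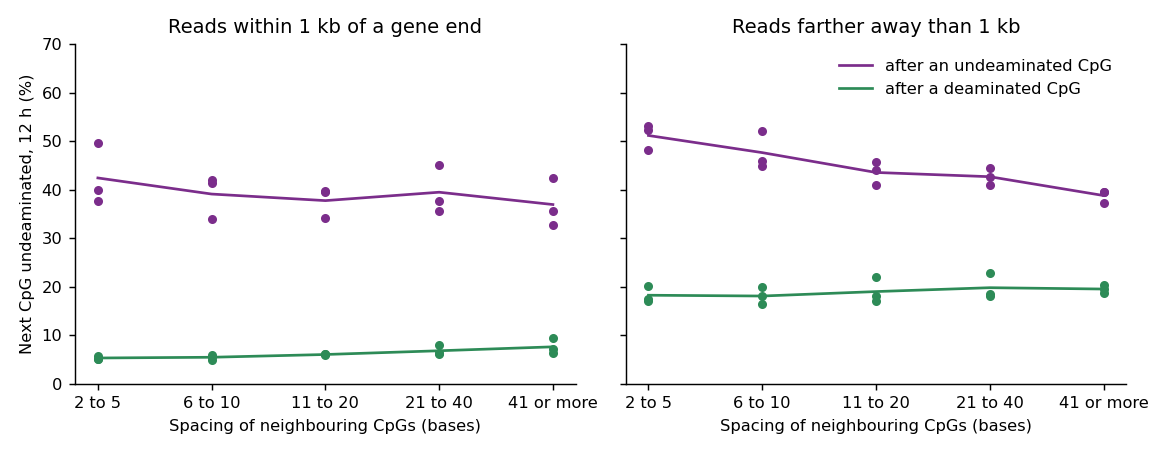
Spacing of neighbouring CpGs on a read in bases (x axis) against the percentage of next CpGs that were undeaminated at 12 h (y axis), after an undeaminated and after a deaminated CpG, within 1 kb of a gene end (left) and farther away (right). Lines are means and points the 3 libraries. Farther away the upper line lies at 51.1% at the closest spacing and 38.8% at the widest while the lower one stays between 18.1 and 19.8%.

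Gene ends split these reads at 12 h. Within 1 kb of a gene end the level was 8.38, 8.84 and 10.3% in 12 h libraries A, B and C, against 23.4, 24.9 and 28.8% farther away. In the 6 h libraries it was 2.69 and 3.11% within 1 kb, against 7.84 and 6.64% farther away. In the untreated libraries it was 0.991, 1.45 and 0.975% within 1 kb, against 0.966, 1.19 and 1.51% farther away. All 5 doxycycline libraries were lower near gene ends, and the untreated ones lay on either side. The gap (within 1 kb minus farther away) averaged -16.5 ± 1.78 points at 12 h and -0.0856 ± 0.409 points at 0 h (difference -16.5 points, exact permutation p = 0.1, adjusted 0.109). At 6 h it averaged -4.34 ± 1.15 points (exact permutation p = 0.1, adjusted 0.109, against 0 h).

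The gap in points was larger at 12 h than at 6 h, while the ratio differed mainly between 0 h and the later times. The level within 1 kb over that farther away was 0.358, 0.354 and 0.358 in 12 h libraries A, B and C, 0.344 and 0.469 in the 6 h libraries, and 1.03, 1.22 and 0.644 in the untreated ones. Unmarked reads at 12 h were 69.1% of the reads within 1 kb and 32.9% of those farther away, and on marked reads the level was 30.5 ± 2.19% within 1 kb and 38.4 ± 1.97% farther away. Reads near gene ends had more CpGs than reads farther away. With 6 CpGs alone they stood at 37.8 ± 2.94% within 1 kb and 39.5 ± 1.65% farther away, which overlap (in library C 41.10 and 41.12%). With 10 CpGs they stood at 22.4 ± 1.49% and 35.7 ± 1.32%.

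The level climbed over the first 5 kb from a gene end and was lower again over 100 kb away. At 12 h it was 6.69 ± 0.882% at 0 to 250 bases, 8.21 ± 1.38% at 250 to 500 bases, 13.4 ± 1.03% at 0.5 to 1 kb, 20.1 ± 2.21% at 1 to 2 kb and 24.6 ± 1.33% at 2 to 5 kb. Beyond, it was 27.6 ± 3.60% at 5 to 20 kb, 27.04 ± 3.07% at 20 to 100 kb and 24.4 ± 3.23% over 100 kb from any gene end. Reads over 100 kb away lay below those at 5 to 20 kb in each 12 h library, with 22.04, 23.1 and 28.1% in A, B and C, against 24.8, 26.4 and 31.7%. At 6 h the steps from 0 to 250 bases up to 2 to 5 kb were 2.47, 3.14, 3.31, 6.61 and 6.33%. At 0 h they were 1.45, 0.867, 0.943, 1.21 and 1.06%, with no such climb.

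The low level belonged to the 5′ ends of genes. Strand was given for 16456 of 20661 protein-coding genes, and reads within 1 kb were sorted by the end nearest to them. Near 5′ ends the level was 0.848, 1.58 and 0.706% at 0 h, 1.36 and 2.37% at 6 h, and 5.57, 5.70 and 7.37% at 12 h, from 828, 849 and 2485 reads. Near 3′ ends it was 0.652, 2.67 and 0.726% at 0 h, 6.12 and 5.06% at 6 h, and 20.3, 24.4 and 24.9% at 12 h, from 165, 181 and 514 reads. At 12 h the 5′ ends lay far below the 3′ ends in every library, and the 3′ ends overlapped the range of reads farther away, although within each library they lay below them, by a difference of -3.88 to -0.561 points. Reads with no mark at 12 h made up 76.2 ± 2.54% near 5′ ends and 38.1 ± 3.27% near 3′ ends. Near ends of genes without a given strand the 12 h level was 10.1 ± 0.787%.

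The difference between 5′ and 3′ ends was -17.0 ± 2.03 points at 12 h, -3.73 ± 1.46 at 6 h and -0.302 ± 0.685 at 0 h. Its change between 12 h and 0 h was -16.7 points (exact permutation p = 0.1, adjusted 0.15 over 3 tests). The 5′ ends minus reads farther away changed by -19.3 points between 12 h and 0 h (p = 0.1, adjusted 0.15, exact permutation), and the 3′ ends minus reads farther away by -2.63 points (p = 0.2, adjusted 0.2, exact permutation, overlapping groups). In limma, fitted over 12 such differences for all classes of CpGs per read, the 5′ ends passed the threshold of 0.05 (-18.8 ± 0.484 points, SE) and the 3′ ends did not (-2.06 ± 0.993, adjusted p = 0.0635). That is 1 of 2 member differences called, where 58.3% of all 12 were called (41.7% lower and 16.7% higher). On the logit scale the 5′ ends passed as well (-1.47 ± 0.320, limma adjusted p = 0.0178). The 3′ ends passed in limma without 12 h library B, with letters as a block and without weights, at -3.23, -2.50 and -2.63 points.

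The split by end was seen in both classes of CpG number. At 12 h, reads with 6 or 7 CpGs had a level of 8.84 ± 2.13% near 5′ ends and 24.6 ± 3.95% near 3′ ends. Reads with 8 to 10 CpGs had 4.48 ± 0.397% near 5′ ends and 21.1 ± 4.27% near 3′ ends. In every 12 h library both 3′ values were above both 5′ values.

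Around start sites the level formed a trough. At 12 h it was 24.3 ± 1.27% at 5 to 2 kb before the start, 16.6 ± 2.41% at 2 to 1 kb, 8.21 ± 0.116% at 1 to 0.5 kb, 6.03 ± 1.71% at 500 to 250 bases and 4.57 ± 2.13% in the last 250 bases. After the start it was 5.72 ± 0.744% in the first 250 bases, 5.21 ± 0.690% from there to 0.5 kb, 8.93 ± 1.16% to 1 kb, 16.7 ± 2.99% to 2 kb and 27.2 ± 5.61% to 5 kb. In the 4 bins from 500 bases before to 500 after the start the libraries ran from 3.03 to 7.98%, and the lowest bin was not the same in all of them. Among untreated cells no bin had a mean above 2.66%.

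**Figure D4:**
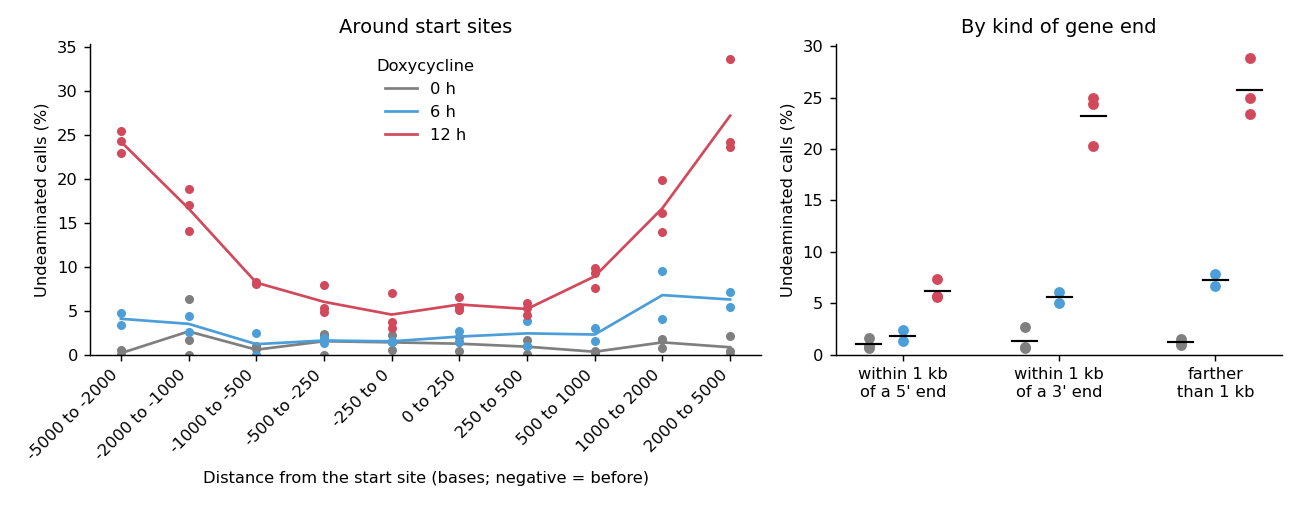
Left: level (y axis, percent of calls undeaminated) by distance from the start site in bases (x axis, unequal bins), with lines for the means and points for the libraries of 0, 6 and 12 h. Right: level within 1 kb of a 5′ end, within 1 kb of a 3′ end and farther than 1 kb from any gene end, with points for libraries and bars for means. At 12 h the trough reaches 4.57%, and 5′ ends lie at 5.57 to 7.37% where 3′ ends lie at 20.3 to 24.9%.

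Inside promoter windows the level fell with the number of CpGs in the window. Of the members, 809 reads lay wholly inside 812 of the 20084 promoter windows of RefSeq (GRCm38.p6), and of their called positions 6710 fell on a CG and 4 did not (99.9%). At 12 h windows with 10 to 19 CpGs, such as those of Prss23 and Spag17, had a level of 4.20 ± 1.59% on 183 reads. The read of Spag17, with 4 of 6 calls undeaminated, lay far above that level. Windows with 20 to 29 CpGs, such as that of Nek2, had 2.14 ± 0.759% on 214 reads, and windows with 30 or more, such as that of App, had 0.745 ± 0.873% on 50 reads. At 0 h windows with 30 or more CpGs had 4 of 120 calls undeaminated, on 15 reads. Windows with fewer than 10 CpGs at 12 h had 32.2 ± 16.0% on only 17 reads, with 29 of 110 calls undeaminated. Libraries A and B stood at 27.3 and 19.2%. Library C stood at 50% on 2 reads, and all 7 of its undeaminated calls were those of the Siah3 read shown above. Over all windows the level was 0.680 ± 0.959% at 0 h, 1.37 ± 0.245% at 6 h and 3.58 ± 1.17% at 12 h. Windows with fewer than 10, 10 to 19, 20 to 29 and 30 or more CpGs make up 42.1, 20.8, 20.99 and 16.1% of all promoters.

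Single genes were covered by few reads. The 20 protein-coding genes with the most members within 1 kb of either end were named by coverage alone, and 10 of them had no undeaminated call at 12 h. Lars2, the mitochondrial leucyl-tRNA synthetase, had 12 reads and 0 of 96 calls at 12 h. Of its 18 reads over all times 17 lay at the 3′ end. Duxf3, a transcription factor of the cleavage-stage embryo from a tandem array, had 12 reads with 15 of 90 calls, spread over 6 reads. Both had over 3 times the reads of the next gene, and near-identical copies could share their reads, so their values are uncertain. Among the others without a mark were Pou3f1 (0 of 26 calls) and Lbx1 (0 of 30), developmental transcription factors, and Zfp143 (0 of 25), a zinc finger transcription factor. Rpl13a, a protein of the large ribosomal subunit, had 0 of 28, Bet1l, a Golgi SNARE, 0 of 29, Hook1, a microtubule-linked adaptor, 0 of 27, and Fbxl15, an F-box protein, 0 of 20. Wdr90 and Rhot2, neighbours whose facing ends can share reads, had 0 of 39 and 0 of 33. The call patterns of all 4 Rhot2 reads at 12 h recurred among the 5 of Wdr90, so these genes should not be counted as separate observations. Hook1 was the 1 named gene with undeaminated calls at 0 h, 4 of 9.

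Apart from Duxf3, the marked genes among these 20 each had 1 marked read at 12 h, except Dio3 with 2. Pard6a, a cell polarity protein, had 6 of 18 calls at 12 h, all on 1 of 2 reads with the calls zZZzZZZZ. Dio3, the deiodinase that inactivates thyroid hormone, had 4 of 22, Wasf2, an actin regulator, 3 of 33, and Aipl1, a photoreceptor chaperone, 3 of 24. Rassf3 had 2 of 25, Flt3, a receptor kinase of blood progenitors, 2 of 18, and Fosl1, an AP-1 subunit, 2 of 17. Gtf2f1, a subunit of the general factor TFIIF, had 1 of 36, and Fntb, a subunit of farnesyltransferase, 1 of 26. None of the 20 genes except Duxf3 had an undeaminated call at 6 h, but coverage was then very low. Wasf2, Wdr90, Gtf2f1, Lbx1, Bet1l, Fntb, Hook1, Zfp143, Fosl1 and Rhot2 had no read at 6 h. The others, apart from Lars2 and Duxf3, had 1 read each.

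At 12 h, 98 genes had at least 3 members near an end outside high-copy windows (10 kb windows with 200 or more calls). Of these, 50 had no undeaminated call, 62 were under 5%, 24 were between 5 and 20% and 12 were at 20% or more. Neighbouring genes can share reads, so the genes are not all separate observations. Among the 12, Plekhg6 and Tnfrsf1a had the same calls, and so had Srrt and Ufsp1. The 4 highest, named after their values were seen, were Hp, the haemoglobin-binding plasma protein, with 14 of 29 calls on 4 reads, Atn1, a transcriptional corepressor, with 9 of 22 on 3 reads, Lsmem2 with 9 of 23 on 3 reads and Pdk2, a kinase of pyruvate dehydrogenase, with 9 of 26 on 4 reads. Their reads were mostly mixed, as in ZzZzZz and ZZZzZzZ at Hp, and none was covered at 0 h.

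Gene lists were covered by few reads and were not tested. Ends of housekeeping genes had 5 of 77 calls undeaminated at 12 h (6.49%), all on 1 of 2 reads of Eef1a1, the translation elongation factor, and Gapdh, a glycolytic enzyme, had 0 of 9. Ends of early lineage genes had 15 of 61 (24.6%), with 1 of 8 each at Hoxb1, Hand1 and Lhx1, transcription factors of the early embryo. Each of these named genes lay below the level of the list, and most of its 15 undeaminated calls came from other genes. A list of germline genes with methylated CpG-rich promoters had 22 of 46 (47.8%) at its gene ends, on 6 reads. Of these 22 undeaminated calls, 8 came from 1 read at the 5′ end of Mov10l1, an RNA helicase of the germline piRNA pathway (ZZZZZZZZ). Another 12 came from 2 reads of Zfp42, a marker of naive pluripotency, with 12 of 16. Both Zfp42 reads lay at the 3′ end and not at the promoter, so the list value does not describe methylated promoters. Zfp42 stands in the pluripotency list too, which had 17 of 50 (34.0%). Of the other genes named there, Fgf4, a growth factor of the early embryo, had 0 of 7 and Tbx3, a T-box transcription factor, 0 of 9, so 12 of the 17 undeaminated calls came from Zfp42. Ends of imprinted genes had 0 of 35, on only 4 reads. A ceiling of 8.57% would hold only for independent calls. Calls of 1 read went together, so these reads do not exclude a higher level. None of the 5 lists had an undeaminated call at 0 h, on 14 to 23 calls each.

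The level was lower with more CpGs near gene ends and, by a smaller share and from 8 CpGs on, farther away. Within 1 kb of a gene end the 12 h level was 14.0 ± 1.96, 10.6 ± 1.61, 8.20 ± 1.56, 6.14 ± 1.54 and 5.63 ± 0.402% for 6, 7, 8, 9 and 10 CpGs. Farther away it was 26.5 ± 2.46, 27.1 ± 3.12, 25.1 ± 2.73, 23.2 ± 3.73 and 20.5 ± 2.48%. Reads with 9 CpGs lay below reads with 6 on both sides in each 12 h library. Farther away these were 20.8, 21.4 and 27.5% for 9 CpGs in libraries A, B and C, against 24.3, 26.1 and 29.2% for 6. By spacing, within 1 kb the level was 6.31 ± 0.831% at a mean spacing under 10 bases, 7.19 ± 0.729% at 10 to 15, 10.7 ± 2.14% at 15 to 20 and 13.2 ± 0.844% at 20 or more, while farther away it was 27.01 ± 2.45, 25.1 ± 2.76, 25.8 ± 2.97 and 25.9 ± 2.66%. The CpGs of a read spanned at most 141 bases, so widely spaced reads held fewer CpGs. The trends by spacing and by number are therefore not separate. Reads farther away with the tightest spacing were wholly undeaminated in 3.68% of cases at 12 h, against 0.860 to 1.11% at wider spacing.

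**Figure D5:**
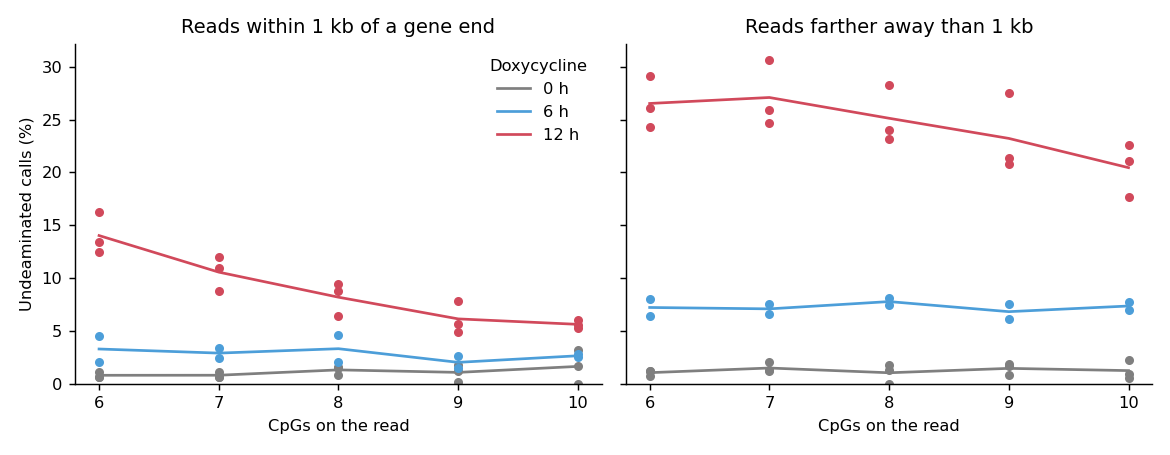
Number of CpGs on the read (x axis) against the level in percent of calls undeaminated (y axis) for reads within 1 kb of a gene end (left) and farther away (right). Lines are means and points the libraries of 0, 6 and 12 h. At 12 h the level within 1 kb lies between 14.0% for 6 CpGs and 5.63% for 10, and farther away between 27.1 and 20.5%.

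In limma, the deviation of each stratum (a number of CpGs and a distance bin) from the level of its library was compared between 12 h and 0 h. Of the 25 member strata 8 were called lower and 5 higher at an adjusted p under 0.05, where 29.1% of all 55 strata were called lower, 45.5% higher and 74.5% either way. All 5 member strata within 1 kb were lower, by -9.91 ± 0.743 points for 6 CpGs, -12.6 ± 0.821 for 7, -15.9 ± 1.01 for 8, -18.0 ± 0.897 for 9 and -18.0 ± 1.18 for 10 (SE, limma adjusted p between 6.07e-10 and 3.00e-08). At 1 to 5 kb reads with 9 and 10 CpGs were lower, by -6.86 ± 1.46 and -7.19 ± 1.09 points, and reads with 6 CpGs higher, by 2.06 ± 0.676. The other 4 called higher were 6 and 7 CpGs at 5 to 20 and 20 to 100 kb, by 2.91 to 3.70 points. Reads with 9 CpGs over 100 kb away were called lower by -2.94 ± 1.25 points, and stood at 0.0259 without high-copy windows. The gap by number of CpGs was called lower for all 5 numbers, by -12.4 to -16.6 points, where 81.8% of the 11 numbers tested were called lower, 9.09% higher and 90.9% either way. On the logit scale none of the 25 strata and none of the 5 gaps was called, with 2 and 1 at an unadjusted p under 0.05. The strata of a library are not independent and the fit treats them as if they were, so these p-values may be far too small.

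Reads with 6 to 10 CpGs stood between their neighbours in CpG number. They lay -4.85, -4.29 and -4.34 points from reads with 4 or 5 CpGs in 12 h libraries A, B and C, and 0.143, -0.130 and 0.158 points in the untreated ones (change -4.55 points, exact permutation p = 0.1, adjusted 0.109). The change was -1.98 points for reads with 6 or 7 CpGs and -8.71 for reads with 8 to 10. From reads with 11 or more CpGs they lay 15.2, 15.7 and 16.9 points at 12 h, against -0.484, 0.265 and 0.175 at 0 h (change 15.9 points, exact permutation p = 0.1, adjusted 0.109). Farther than 1 kb from gene ends the 12 h level was 25.7 ± 2.78% on the members, 27.1 ± 2.14% on reads with 4 or 5 CpGs and 9.75 ± 1.64% on reads with 11 or more. Just inside and outside the bounds the 12 h level was 24.8 and 26.1% for 6 and 5 CpGs and 14.1 and 10.8% for 10 and 11.

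The level differed with the place of a call on its read at 0 h and, in the other direction, at 12 h. The early, middle and late calls of a read, in equal parts, had 0.776, 0.906 and 1.24% in untreated library A, 0.818, 1.28 and 1.67% in B, and 1.09, 1.39 and 1.66% in C, so the late calls were the highest in each. At 12 h the means were 22.1, 22.5 and 21.2%. The late calls were then the lowest in each library, with 19.4, 20.5 and 23.7% in A, B and C. The early calls had 20.1, 21.3 and 24.9% and the middle ones 20.6, 21.8 and 25.1%. These differences were not tested. Reads whose calls ascended along the chromosome had 21.9 ± 2.30% and those whose calls descended 21.97 ± 2.40% at 12 h. Farther than 1 kb from gene ends, reads in gene bodies had 24.2, 25.4 and 28.97% in 12 h libraries A, B and C, against 22.2, 24.3 and 28.5% between genes, higher in each. Chromosomes ranged from 19.1 ± 1.75% on chromosome 17 to 25.8 ± 5.66% on chromosome 15 at 12 h, and 15 lay above 17 in each library.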

How the data were processed

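DNA from 8 libraries was measured by ACE-seq from 10 ng of input in 3 sequencing runs. The authors deposited 1 line per CpG call, a call letter (Z or z) with its read name and position, written by the Bismark methylation extractor 0.22.3, per the file headers. Trim Galore and GRCm38 are named in the submitters' processing notes. Whether duplicate reads were removed, and how reads were trimmed, is not given in the sources used here.

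Calls were counted per read name, and levels were taken per library. Distances ran to the ends of 20661 protein-coding genes of RefSeq (GRCm38.p6), with strand from its promoter table. Single values were compared by two-sided exact permutation tests over libraries (smallest p 0.1) and strata with limma 3.58.1 in R 4.3.3, with a minimum of 10 calls per library and Benjamini-Hochberg adjustment over all strata. The limma fit of strata was tested on simulated counts. The fitted distributions were run on simulated graded counts only, so that run cannot decide between a graded share and separate levels. Intervals cover counting error only. High-copy windows are 10 kb windows with 200 or more calls. The 20 named genes had the most reads near an end, and up to 3 genes of a list were named by the same count.

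The members and lists were chosen with earlier results of these data known. The split by 5′ and 3′ end, the fitted distributions and the description by spacing and start site were added after the data were seen. Deviations of same-letter libraries had correlations of 0.0516, -0.0350 and -0.154, so the letters were not taken as pairs.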

Additional observations from a re-analysis of the deposited data

Results flagged for a closer look

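Reads with 6 to 10 CpGs on the sex chromosomes and unplaced contigs, which no comparison used, also carried undeaminated calls at 12 h above the untreated libraries. On the X chromosome the mean level was 22.3% at 12 h, from 251 reads, against at most 1.06% in an untreated library. On the Y chromosome it was 28.7% at 12 h, from only 29 reads, against 0 of 34 calls at 0 h. On unplaced contigs it was 21.7% at 12 h, from 59 reads, against at most 2.47% at 0 h. These differences were not tested. Mitochondrial reads, also outside the comparisons, had 0 of 149, 3 of 118 and 2 of 50 calls undeaminated in 12 h libraries A, B and C, against 0 of 18 and 0 of 19 in untreated libraries A and C, with none in B, so library A was no higher.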

How the results depend on the processing

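On the logit scale the counts of called strata were 0 in all, 0 lower and 0 higher, and the count of called gaps was 0. There reads with 7 CpGs stood at -0.0723 (20 to 100 kb) and -0.235 (5 to 20 kb) and reads with 9 CpGs over 100 kb away at 0.473, and the last stood at 0.0259 points without high-copy windows. The cause was not tested. The count of called ends was 2 with the replicate block and 2 without weights, and 1 to 2 when each library was left out in turn. With the replicate block 16 strata were called (9 lower, 7 higher). The exact p by sign flips of same-letter differences was then 0.25 for the level and the gap at 12 h against 0 h. That is the smallest p that the pairs A, B and C allow. Without each library in turn, the 12 h minus 0 h level was 19.4 to 21.7 points, the gap -17.2 to -15.5 and the count of strata 11 to 14. The share of wholly undeaminated reads was 2.02 points higher in run 52 alone and 3.40 with reads of at least 80% counted, and that of mixed reads then 35.4. Of the other values of single strata and ends, 487 kept direction and call, 25 lost a call and 11 gained one. Untreated calls were sparse, with 460 undeaminated of 39708, which limits values near gene ends at 0 h.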
